A study of Homo sapiens with 3 samples.

Results

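The miR-30 family was examined in MV4-11 cells as a set of 6 hairpins, listed as hsa-mir-30a, hsa-mir-30b, hsa-mir-30c-1, hsa-mir-30c-2, hsa-mir-30d and hsa-mir-30e. Members were chosen by name. All 6 of these hairpins were among the 661 primary transcripts listed, and 10 miR-30 arms were among the 783 mature miRNAs listed. miR-30c-2-3p had no row and is not analysed here. MV4-11 is a human acute myeloid leukemia cell line, positive for FLT3-ITD, an internal tandem duplication in a growth factor receptor gene. The line also carries the fusion protein MLL-AF4. The cells were labelled WT for genotype, and had been infected with a lentiviral CRISPR-Cas9 vector without insert (EV). Total RNA was isolated after 2 weeks of growth. The 3 replicate cultures make up 1 group in which Cas9 and the vector are shared by all, so members, arms and neighbouring hairpins can be compared, but no treatment.

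miRNAs are made from hairpins in longer transcripts. Drosha releases the hairpin, Dicer removes its loop, and the 5p or the 3p strand of the remaining duplex is loaded into an Argonaute protein. The loaded strand finds mRNAs mainly through its seed, bases 2 to 8, and the other strand is mostly degraded. The miR-30 5p strands share a seed and so are predicted to share most targets, among them BECN1, which acts in autophagy, and PRDM1, a regulator of blood cell differentiation.

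The sequences are shown because they set which members can repress the same mRNAs and which reads can be told apart. The mature sequences below are from RefSeq (GRCh38.p14), 5′ to 3′, with the seed in capitals. They are those of the members on chromosomes 1 and 6.
miR-30a-5p: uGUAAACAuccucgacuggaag
miR-30e-5p: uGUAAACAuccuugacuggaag
miR-30c-5p: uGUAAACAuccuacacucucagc
miR-30a-3p: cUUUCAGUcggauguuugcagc
miR-30e-3p: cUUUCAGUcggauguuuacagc
miR-30c-1-3p: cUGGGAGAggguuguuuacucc
The 3 5p strands shown were identical over their first 12 bases and differed toward the 3′ end. Counting from 1 at the 5′ end, miR-30a-5p became miR-30e-5p by the single change C13U, and miR-30a-3p became miR-30e-3p by G18A. miR-30c-5p matched miR-30a-5p at 17 of 22 positions. The 3p strands shown carried 2 seeds, one shared by miR-30a-3p and miR-30e-3p and the other carried by miR-30c-1-3p. The reference used held no sequence for miR-30b and miR-30d, so the seeds of their strands were not examined.

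The hairpins lie in 3 pairs of neighbours in GRCh38 (GENCODE v29). MIR30E (chr1:40754355-40754446, plus strand) and MIR30C1 (chr1:40757284-40757372, plus strand) are 2837 bases apart in introns of NFYC, which encodes a subunit of the transcription factor NF-Y. MIR30C2 (chr6:71376960-71377031, minus strand) and MIR30A (chr6:71403551-71403621, minus strand) are 26519 bases apart in introns of the lincRNA genes LINC00472 and AL136164.2. MIR30B (chr8:134800520-134800607, minus strand) and MIR30D (chr8:134804876-134804945, minus strand) are 4268 bases apart and had no host gene on either strand in this annotation. The deposited tables give names without coordinates, so these positions were matched by name.

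Counts assigned to mature miRNAs were between 10991953 and 12694823 per library. All 5 blood cell markers checked were listed, with sums of 31108, 53656 and 55752 per 1000000 counts in replicates 1, 2 and 3. Of 8 markers of other tissues or red blood cells, 6 were listed, with 7454, 9523 and 9153 per 1000000 counts. The highest of these was miR-9-5p, from the brain list, at rank 28. It alone gave 88186, 90286 and 85725 of their 94631, 104679 and 106929 counts. miR-1-3p and miR-205-5p had no row. Replicate 1 stood apart from replicates 2 and 3. For abundant miRNAs, the 163 that reached 1000 counts in each library, the median log2 ratio per 1000000 counts was 0.41 between replicates 2 and 1, 0.52 between replicates 3 and 1, and 0.12 between replicates 3 and 2. The blood markers were lowest in replicate 1 as well, and their part in the differences between cultures given below was not tested. The cultures are replicates per the labels, and nothing says how far they were handled apart.

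The family made up a sizeable part of the miRNA pool, and most of it was a single strand. Levels are given as FPKM, reads per kilobase of the feature and per 1000000 reads. All listed miR-30 arms together held 6.41% of the summed FPKM in replicate 1, 5.37% in replicate 2 and 5.14% in replicate 3, or 5.64% ± 0.675 (SD, n = 3). As shares of counts these were 6.40% (Wilson 95% interval 6.39 to 6.42), 5.35% (5.34 to 5.36) and 5.12% (5.10 to 5.13). The intervals cover counting error only, and the libraries differed far beyond it. The 5 listed 5p arms gave 5.55% ± 0.676 and the 5 listed 3p arms 0.0945% ± 0.00284 of summed FPKM (SD, n = 3).

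miR-30d-5p was the highest member. It had 2400850, 1718810 and 1619283 FPKM in replicates 1, 2 and 3, from 640177, 396839 and 397341 counts. It ranked between 3 and 7 among 783 mature miRNAs in single libraries. miR-30e-5p followed with 426041, 471249 and 412375 FPKM. This strand ranked between 17 and 23. miR-30c-5p, made from both 30c hairpins, had 126135, 208873 and 235446 FPKM with its 2 rows summed. miR-30b-5p had 40136, 90532 and 108150 FPKM. Both were lowest in replicate 1, by a wide margin for miR-30b-5p. miR-30a-5p, known as a repressor of BECN1, was the lowest 5p arm, with 4744, 4097 and 3480 FPKM and a rank of 187 by its mean.

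**Figure D1:**
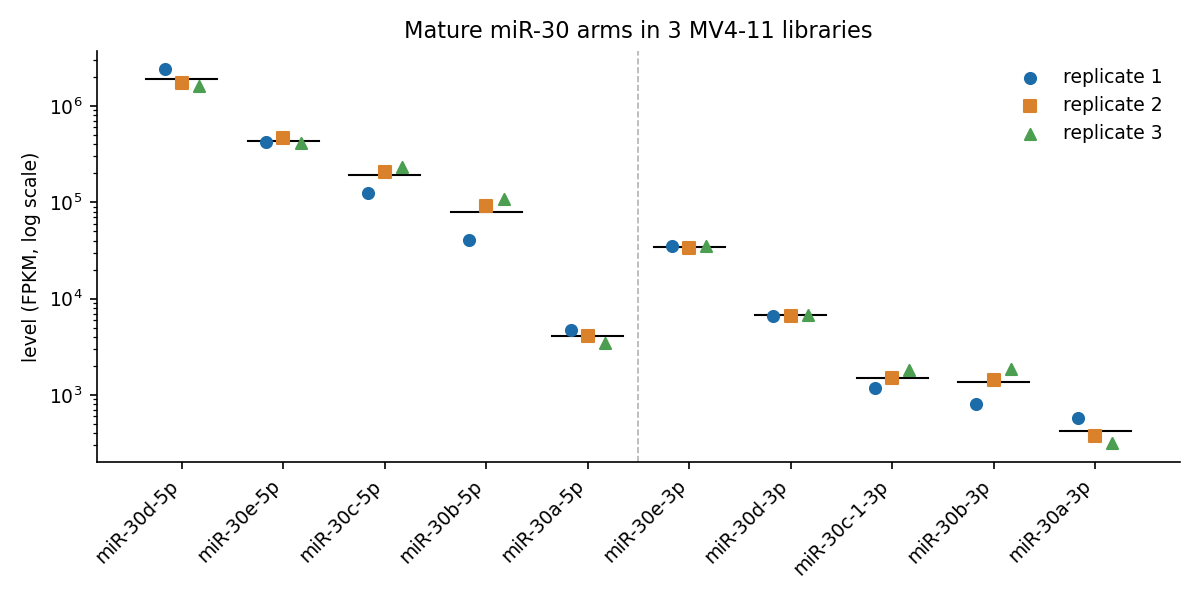
Level of each listed mature miR-30 arm in the 3 libraries (FPKM, log scale), 5p arms left of the dashed line and 3p arms right of it. Points are replicates and bars are means. The 5p arms fall from miR-30d-5p at 1912981 to miR-30a-5p at 4107 FPKM on average, and miR-30c-1-3p and miR-30b-3p overlap.

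The order miR-30d-5p, miR-30e-5p, miR-30c-5p, miR-30b-5p, miR-30a-5p held in each of 3 libraries, and with the rows of miR-30c-5p summed the values of neighbours in this order did not overlap between libraries. miR-30d-5p exceeded miR-30e-5p by 5.64-, 3.65- and 3.93-fold in replicates 1, 2 and 3. miR-30e-5p exceeded miR-30c-5p by 3.38-, 2.26- and 1.75-fold. miR-30c-5p exceeded miR-30b-5p by 3.14-, 2.31- and 2.18-fold, or by 1.58-, 1.15- and 1.09-fold with only the higher of its rows kept, and then their values overlapped between libraries. These steps were each smaller than the step down to miR-30a-5p, which was 8.46-, 22.1- and 31.1-fold below miR-30b-5p.

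Within the 5p pool, miR-30d-5p held 72.4% ± 6.70, miR-30e-5p 16.8% ± 2.39, miR-30c-5p 7.49% ± 2.95, miR-30b-5p 3.17% ± 1.65 and miR-30a-5p 0.156% ± 0.00916 (SD, n = 3). The share of miR-30d-5p was 80.1% in replicate 1, 68.9% in replicate 2 and 68.1% in replicate 3. miR-30c-5p went the other way, with 4.21%, 8.38% and 9.90%. For miR-30d-5p, miR-30c-5p and miR-30b-5p, replicates 2 and 3 were closer to each other than either was to replicate 1.

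**Figure D2:**
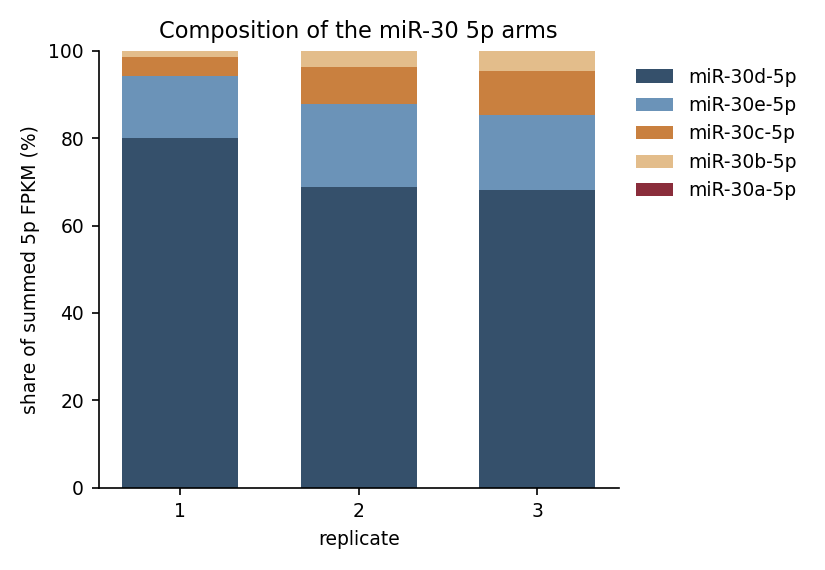
Share of the summed FPKM of the 5 miR-30 5p arms held by each member in replicates 1, 2 and 3 (stacked bars, percent). miR-30d-5p holds 80.1%, 68.9% and 68.1%, and miR-30a-5p at about 0.156% is barely visible.

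Every miR-30 hairpin with both arms listed was read mainly from its 5p arm. Arm preference was tested with edgeR's quasi-likelihood test on the counts of the arms, with the library as a block, over all 202 arm pairs that passed the filter. A pair was called at a Benjamini-Hochberg adjusted p under 0.05 and an absolute log2 ratio of at least 1. All 5 miR-30 pairs were called toward 5p. Among all 202 pairs, 86 (42.6%) were called toward 5p and 86 toward 3p, and 85.1% were called toward either arm. The median log2 ratio of 5p to 3p was 5.83 over the miR-30 pairs and -0.36 over all pairs.

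The hairpins differed in how much of the 3p strand was found. The 3p share was largest for miR-30a and miR-30e. miR-30e had 113602, 108802 and 101189 counts of 5p and 9408, 7739 and 8654 counts of 3p. Its 3p arm was 7.39% ± 0.658 of both arms (SD, n = 3), and the log2 ratio was 3.65 ± 0.19 (SE, edgeR adjusted p = 3.05e-05). miR-30a had 1265, 946 and 854 counts of 5p and 154, 86 and 77 counts of 3p. Its 3p arm was 9.15% ± 1.47 (SD, n = 3), and the log2 ratio was 3.32 ± 0.29 (SE, edgeR adjusted p = 0.000193). The 3p share of miR-30a was 10.9% (Wilson 95% interval 9.34 to 12.6), 8.33% (6.80 to 10.2) and 8.27% (6.67 to 10.2) in replicates 1, 2 and 3. That of miR-30e was 7.65% (7.50 to 7.80), 6.64% (6.50 to 6.78) and 7.88% (7.72 to 8.04). The share was higher for miR-30a in 3 of 3 libraries and the values did not overlap, but in replicate 3 the counting intervals did, and the difference between these hairpins was not tested. Both ratios were near the middle of all pairs, since 47.5% and 52.5% of pairs had a smaller absolute log2 ratio.

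miR-30b, miR-30c and miR-30d were more one-sided. miR-30b had 10702, 20902 and 26538 counts of 5p and 212, 332 and 461 counts of 3p, with a log2 ratio of 5.83 ± 0.26 (SE, edgeR adjusted p = 1.72e-05). For miR-30c, 35235, 50521 and 60525 counts of 5p stood against 313, 348 and 444 counts of miR-30c-1-3p, with a log2 ratio of 7.03 ± 0.25 (SE, edgeR adjusted p = 1.15e-05). The 5p strand of miR-30c comes from 2 hairpins and the listed 3p strand from 1, so this ratio sets both loci against 1. miR-30d had 1770, 1540 and 1658 counts of 3p and the largest log2 ratio of the family, 8.14 ± 0.26 (SE, edgeR adjusted p = 8.59e-06). Its 5p exceeded its 3p by 362-, 258- and 240-fold in replicates 1, 2 and 3. The 3p shares of miR-30b at 1.74% ± 0.191, miR-30c at 0.764% ± 0.103 and miR-30d at 0.359% ± 0.0738 (SD, n = 3) did not overlap with each other or with those of miR-30a and miR-30e.

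**Figure D3:**
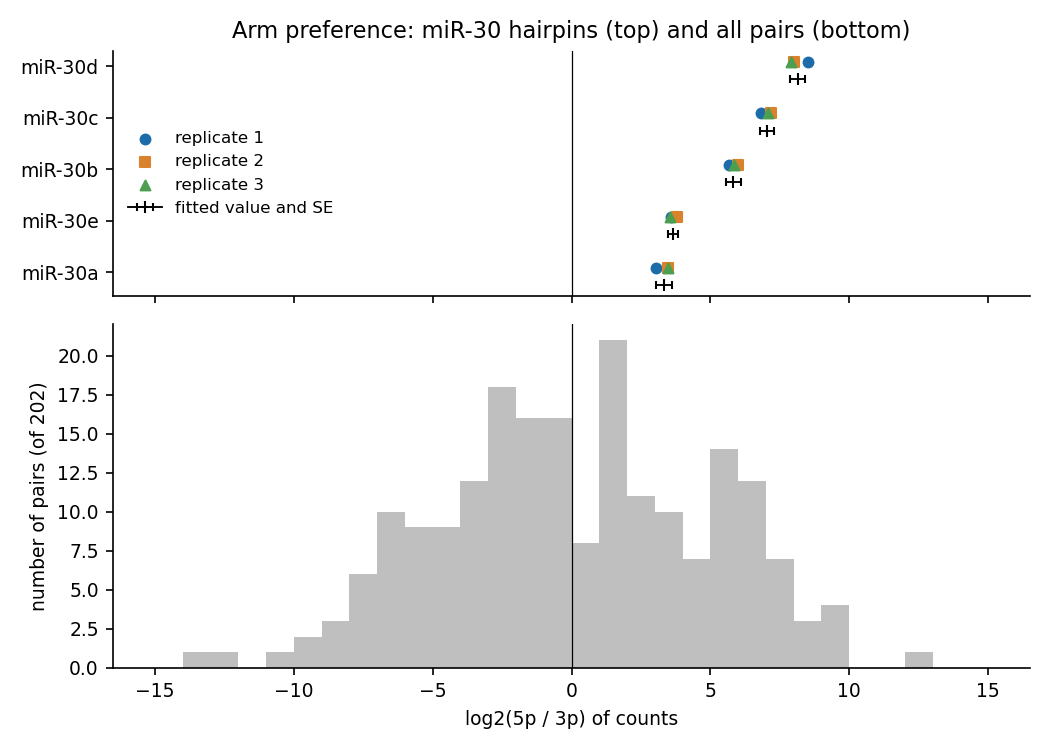
Top, log2 ratio of 5p to 3p counts for the 5 miR-30 hairpin names, with 1 point per replicate and below it the fitted value with its SE. Bottom, the same fitted ratio for all 202 pairs, as a histogram. The miR-30 ratios lie between 3.32 and 8.14, all on the 5p side, while the whole table is spread on both sides of 0.

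The order of the 3p strands was not that of the 5p strands. miR-30e-3p was the highest with 35283, 33520 and 35268 FPKM. miR-30d-3p had 6638, 6670 and 6757 FPKM and was below miR-30e-3p by 5.32-, 5.03- and 5.22-fold, although miR-30d-5p was above miR-30e-5p in each library. miR-30c-1-3p had 1174, 1507 and 1809 FPKM and miR-30b-3p had 795, 1438 and 1879 FPKM. These overlapped, and which was higher differed between libraries. miR-30a-3p was the lowest with 578, 372 and 314 FPKM.

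Neighbouring hairpins may share a primary transcript, and their levels were compared to see how alike they were. All 3 miR-30 pairs were called different on the counts as assigned to the hairpins. The test was edgeR's quasi-likelihood test on primary transcript counts per hairpin length, with the library as a block, over 100 pairs of listed hairpins that were consecutive on a strand within 50 kb. Of these, 67 pairs (67.0%) were called at an adjusted p under 0.05 and an absolute log2 ratio of at least 1, so a difference between neighbours was common in this table. The median absolute log2 ratio over all pairs was 1.96.

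On chromosome 8, MIR30D (hsa-mir-30d) had 731423, 524143 and 494122 FPKM and MIR30B (hsa-mir-30b) 9867, 22160 and 26493 FPKM in replicates 1, 2 and 3. MIR30D was higher in every library, by 74.1-, 23.7- and 18.7-fold. The log2 ratio was 4.98 ± 0.57 (SE, edgeR adjusted p = 0.00192), and it was 4.39 ± 0.14 without replicate 1 (adjusted p = 0.00125). These values are per hairpin length. On counts with no such division, the log2 ratio of MIR30B to MIR30D was -4.65. MIR30D was highest in replicate 1, where MIR30B was lowest. The SD of the log2 ratio between libraries was 1.06, which was larger than that of 96.4% of the 55 neighbour pairs with at least 100 counts for both hairpins in every library.

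On chromosome 6, MIR30C2 (hsa-mir-30c-2) had 19550, 32310 and 36280 FPKM and MIR30A (hsa-mir-30a) 1593, 1337 and 1135 FPKM. MIR30C2 was the higher as counted, by 12.3-, 24.2- and 32.0-fold, with a log2 ratio of 4.41 ± 0.36 (SE, edgeR adjusted p = 0.000863). Its 17663, 25290 and 30184 counts were, to within 1 count, those of 1 row of miR-30c-5p, a strand that MIR30C1 also encodes. Beyond that row MIR30C2 had at most 1 count in a library, so almost no read was specific to it. How many of the shared reads came from MIR30C2 cannot be told, so this ratio and its test hold only for the reads as assigned. With reads as assigned, here too one neighbour was higher in replicates 2 and 3 than in replicate 1 while the other was lower. On chromosome 1, MIR30E (hsa-mir-30e) had 106265, 116204 and 103050 FPKM and MIR30C1 (hsa-mir-30c-1) 16481, 26902 and 30437 FPKM. MIR30E was the higher by 6.45-, 4.32- and 3.39-fold, with a log2 ratio of 2.19 ± 0.25 (SE, edgeR adjusted p = 0.00192). The summed level of a pair was 602736 ± 120677 FPKM on chromosome 8, 133113 ± 10185 on chromosome 1 and 30735 ± 8518 on chromosome 6 (SD, n = 3). These did not overlap between libraries, and those of chromosomes 1 and 6 rest on the reads as assigned.

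**Figure D4:**
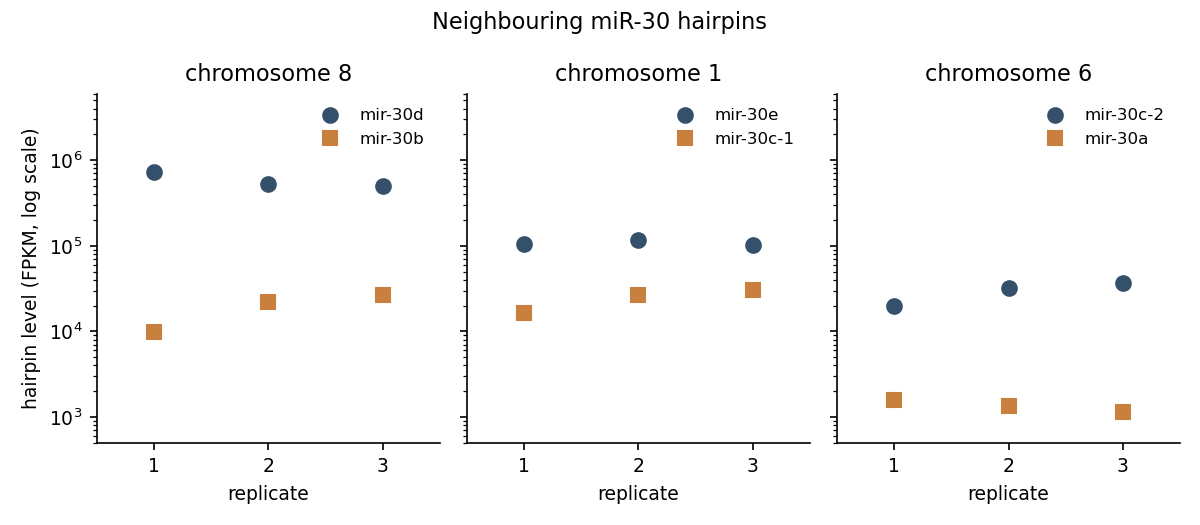
Level of the 2 neighbouring miR-30 hairpins of each chromosome in replicates 1, 2 and 3 (FPKM of the primary transcript, log scale). The upper hairpin stays above the lower in all 9 comparisons. On chromosomes 8 and 6 one hairpin is higher and the other lower in replicates 2 and 3 than in replicate 1. Levels of mir-30c-1 and mir-30c-2 rest on reads of miR-30c-5p, which cannot be told apart between these hairpins.

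The split of miR-30c reads between its 2 hairpins is uncertain, because the mature 5p sequence is the same in both. The 2 rows of miR-30c-5p held 17663 and 17572 counts in replicate 1, 25290 and 25231 in replicate 2, and 30183 and 30342 in replicate 3. They differed by 91, 59 and 159 counts, less than the SD of 188, 225 and 246 counts that a random split of their sum would give. Of the 44 mature names with 2 rows, 0 had identical counts in all libraries. If each read had been counted in both rows, miR-30c-5p would be at 95274 FPKM in place of 190151. The level and share of miR-30c-5p, its ratios to miR-30e-5p, miR-30b-5p and its 3p arm, and the levels of MIR30C1 and MIR30C2 with their ratios to their neighbours carry this uncertainty.

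Nearly all hairpin reads lay in the listed arms. Counts outside them were 0 for MIR30A in each library, 9 to 20 for MIR30B, 271 to 513 for MIR30D and 38 to 44 for MIR30E. The 30c hairpins together had 571, 520 and 601 such counts, or 1.58%, 1.01% and 0.976% of their reads. The primary transcript of MIR30C2 had 17663, 25290 and 30184 counts, which were those of 1 of the miR-30c-5p rows to within 1 count. Beyond that row MIR30C2 had at most 1 count in a library, so nearly all 30c counts outside the listed arms were assigned to MIR30C1. The hairpin table therefore holds the same small RNA reads as the mature table and is no measure of the precursor.

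The low level of miR-30a rests on reads that differ from abundant relatives by few bases. Counts of miR-30a-5p were 1.11%, 0.869% and 0.844% of those of miR-30e-5p, from which it differs at 1 base, and 0.198%, 0.238% and 0.215% of those of miR-30d-5p. Counts of miR-30a-3p were 1.64%, 1.11% and 0.890% of those of miR-30e-3p, again with 1 base between them. How the counting treated reads with mismatches is not given in the sources used here, and the part of such reads in the miR-30a counts was not tested.

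Members of the family differed in how they varied between cultures. Of the 10 listed arms, 5 were higher as a share of counts in replicates 2 and 3 than in replicate 1, 4 were lower, and miR-30e-5p was mixed. Only 6 of the 10 arms reached 1000 counts in each library. miR-30a-5p, miR-30a-3p, miR-30b-3p and miR-30c-1-3p did not, so their comparison with the abundant miRNAs is loose. This tally also takes in changes within counting error. The Wilson intervals of miR-30d-3p, counted as higher, overlapped between all libraries. Those of miR-30e-3p, counted as lower, overlapped between replicates 1 and 3. Of the 163 abundant miRNAs, 70.6% were higher in both and 22.7% were lower in both. These counts depend on the scaling. With TMM, 3 arms were higher and 7 lower, against 46.0% and 50.9% of the abundant miRNAs, and with DESeq2 size factors 3 were higher and 6 lower, against 46.6% and 49.7%. Relative to replicate 1, the log2 ratio of miR-30b-5p reached 1.17 and 1.43 in replicates 2 and 3, above 82.8% of these miRNAs in both. That of miR-30c-5p was 0.73 and 0.90. miR-30d-5p was at the other end, with -0.48 and -0.57, above 7.36% and 8.59% of these miRNAs. miR-30a-5p had -0.21 and -0.45.

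Both arms of miR-30b were higher in replicates 2 and 3, with log2 ratios to replicate 1 of 0.85 and 1.24 for miR-30b-3p, and both arms of miR-30a were lower, with -0.63 and -0.88 for miR-30a-3p. The arms of miR-30d did not move together, since miR-30d-3p was at 0.01 and 0.03. With scaling by edgeR's TMM or DESeq2's size factors, which moved the median of the 163 miRNAs to between -0.12 and -0.04, miR-30b-5p, miR-30b-3p and miR-30c-5p were still higher and miR-30a-5p, miR-30a-3p, miR-30d-5p and miR-30e-3p still lower in replicates 2 and 3. The directions of miR-30c-1-3p, miR-30d-3p and miR-30e-5p turned in at least 1 of these ratios.

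**Figure D5:**
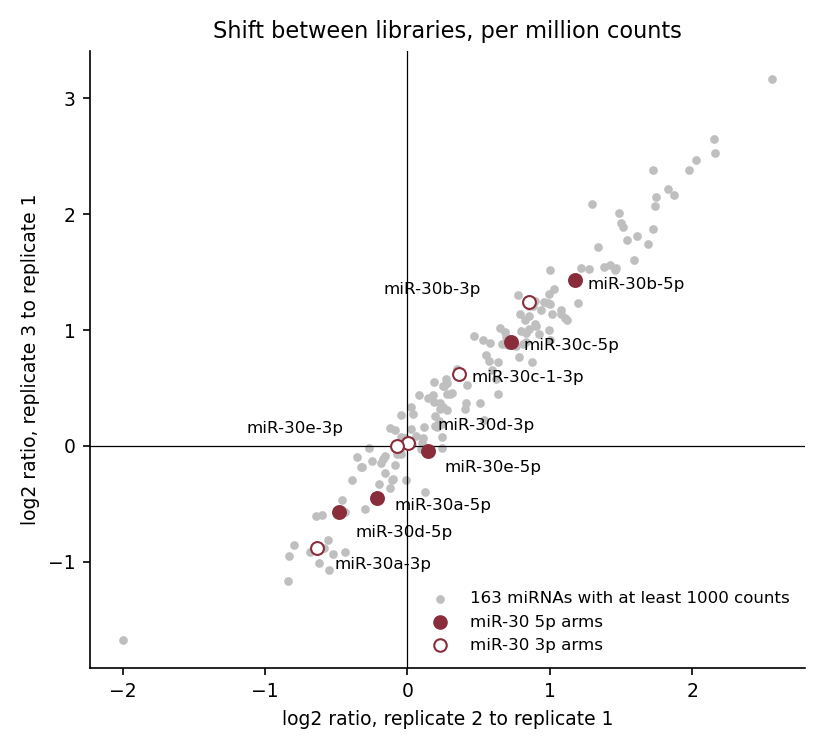
Log2 ratio, per 1000000 counts, of replicate 2 (x axis) and replicate 3 (y axis) to replicate 1, for the 163 abundant miRNAs (grey) and the 10 miR-30 arms (filled for 5p, open for 3p). The miR-30 arms run from miR-30a-3p at -0.63 and -0.88 to miR-30b-5p at 1.17 and 1.43.

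The coefficient of variation over 3 libraries was 7.06% for miR-30e-5p, 15.4% for miR-30a-5p, 22.2% for miR-30d-5p, 29.98% for miR-30c-5p and 44.3% for miR-30b-5p. The median of the 163 miRNAs was 29.1%, and it is given for this scaling only. The coefficient of miR-30d-3p was 0.919%, but 23.9% with TMM and 21.2% with DESeq2 size factors. The summed family varied by 12.3%, less than miR-30d-5p alone, and miR-30b-5p and miR-30c-5p were lowest in replicate 1, where miR-30d-5p was highest. These values depend on the scaling. With TMM the coefficient was 37.8% for the sum, 48.0% for miR-30d-5p, 39.8% for miR-30a-5p, 26.8% for miR-30b-5p, 23.9% for miR-30e-5p and 9.36% for miR-30c-5p, and without replicate 1 it was 3.20% for the sum.

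The family was set beside others by summed level. Grouped by the number in their names, miR-30 ranked 4 of 487 families on its mean, below miR-21, let-7 and miR-148 and above miR-191. Its share of 5.64% ± 0.675 overlapped with that of miR-148 at 6.30% ± 1.93 (SD, n = 3), and miR-30 was the higher of this pair in replicate 3. Grouped by seed among the 679 names with a RefSeq sequence, the 3 listed 5p strands shown above had 630813 ± 66077 FPKM (SD, n = 3) and ranked 13 of 580 seeds. That group leaves out miR-30b-5p and miR-30d-5p, for which the reference used held no sequence. With them, the 5 listed 5p arms summed to 2623400 ± 329373 FPKM (SD, n = 3), so 13 is the rank of the 3 strands only. The seed of miR-24-3p, at 771176 ± 259282 FPKM, stood just above and that of miR-142-3p, at 528779 ± 277090 FPKM, just below (SD, n = 3). These 3 neighbours differed by less than the larger SD. The seed of miR-30a-3p and miR-30e-3p ranked 54 and that of miR-30c-1-3p ranked 169, with miR-30b-3p and miR-30d-3p left out for want of a sequence.

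The miRNAs whose pattern over the 3 libraries was nearest to that of the summed miR-30 5p arms were found by the Euclidean distance between centred log2 levels. The 3 nearest of 157 miRNAs outside the family were miR-378a-3p at 0.052, miR-629-5p at 0.082 and miR-146b-3p at 0.11, where the median distance was 0.65. The summed 5p arms had 63095, 52585 and 50200 per 1000000 counts in replicates 1, 2 and 3, and miR-378a-3p had 8213, 7151 and 6524. With 3 libraries of 1 group, this is a likeness of replicate variation and carries no test.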

How the data were processed

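Per the labels, RNA of 3 replicate cultures was prepared as NEB small RNA libraries and read on an Illumina HiSeq instrument. Read counts per feature over miRBase release 21, for mature strands and for primary transcripts, were deposited without normalization. The deposited FPKM were computed by the authors from these counts; the length they imply was a whole number throughout, and for each miR-30 hairpin it was 1 base under the annotated span. The submitters' processing notes name Novoalign 2.08.03 and the builds hg19 and mm10; trimming and settings are not given in the sources used here.

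Rows of 1 name were summed. Levels and shares used FPKM, and tests used counts with edgeR 4.0.16 in R 4.3.3, fitted over the whole table and adjusted by the Benjamini-Hochberg method. Arm pairs needed 10 counts in at least 1 arm in every library, which 202 of 209 met, and hairpin pairs likewise, which 100 of 102 met. Of 661 hairpins, 655 matched 1 place in GENCODE. Both fits were tested on simulated data with known ratios. The arms and hairpins compared come from the same library, so the library was a block by construction. p-values measure only the spread between these cultures. The SE of a ratio was derived from the test, as the absolute log2 ratio over the square root of its F statistic. The spread in that statistic is partly shared over all pairs. limma 3.58.1 and DESeq2 1.42.0 were alternatives. Named with values were all listed miR-30 arms and hairpins, the seed groups ranked next to theirs and the 3 miRNAs nearest in pattern. The members and lists were chosen with earlier results of these data known. Other values were computed with Python 3.11.15. Libraries held 10991953 to 12694823 mature counts without molecular identifiers, so intervals cover counting error only.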

Additional observations from a re-analysis of the deposited data

How the results depend on the processing

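Grouping families by name was added as an alternative after seeing the data. Of 215 values recomputed, 194 stayed on the same side of their threshold or within the spread that applied, 21 moved and 0 reversed. The directions of members between replicates were not among these 215 values. As given above, those of miR-30c-1-3p, miR-30d-3p and miR-30e-5p turned with the scaling. Some of the 194 could not have moved, since keeping 1 row of each name leaves an arm with a single row unchanged. All 5 arm calls and all 3 hairpin calls held under every alternative in which the pair was tested. No alternative changed how miR-30c-5p reads were divided between MIR30C1 and MIR30C2, so the calls that involve these hairpins were not tested against that division. Pairs with single rows left out miR-30c, and neighbours within 10 kb left out MIR30A and MIR30C2. Without the replicate block, 174 arm pairs and 68 hairpin pairs were called in place of 172 and 67, and all miR-30 calls held. With 1 replicate left out, 146 to 178 arm pairs and 67 to 70 hairpin pairs were called. The coefficient of variation of the summed family was 12.3%, and it was 37.8% with TMM, 35.1% with DESeq2 size factors and from 3.20% to 16.0% with 1 replicate left out, lowest without replicate 1. The seed group of the miR-30 5p strands with a sequence, which lacks miR-30b-5p and miR-30d-5p, ranked 13. The family ranked 4 when grouped by name. That grouping also takes in miR-30b, miR-30d, the 3p arms and names without a sequence, and regroups every other family. The 5 listed 5p arms summed to 2623400 FPKM and the 5 listed 3p arms to 44667 FPKM. The parts of these differences in the change of rank were not tested separately. The family's share of summed FPKM ran from 5.26% to 5.89% with 1 replicate left out. Leaving out 1 of 3 replicates cannot shift a mean by as much as its SD.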
